A study of Homo sapiens with 6 samples.

Results

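The 10 genes described here, ANGPTL4, CA9, BNIP3, P4HA1, VEGFA, ADM, NDRG1, EGLN3, ANKRD37 and KDM3A, are well-known transcriptional targets of the hypoxia-inducible factors (HIF). They were taken by symbol from a table that held 27852 gene symbols, after each transcript had been counted once and its values summed by symbol. All 10 were in the table and all 10 were among the 13236 genes with enough counts to be tested. Their RNA was measured in the HSC3, HSC4 and SAS cell lines, which were established from human oral squamous cell carcinomas. Each line was grown in HPLM, a medium composed to resemble human plasma, and in DMEM, a standard culture medium, so there were 3 HPLM and 3 DMEM libraries, 1 for each line and medium. Both media held 10% heat-inactivated fetal bovine serum and an antibiotic-antimycotic mix, and the labels name no oxygen level and no hypoxic treatment in either group. The series title also names chromatin accessibility, which was not analysed here.

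In oxygenated cells, prolyl hydroxylases of the EGLN family mark the HIF alpha subunits for the VHL ubiquitin ligase and for degradation. When oxygen is short, or when the hydroxylases are inhibited in another way, HIF1A and EPAS1 accumulate as protein, pair with ARNT and bind a short core in target genes, ACGTG or GCGTG. Most of this control acts on the HIF proteins, which RNA does not show. The targets supply angiogenic signals, acid-base control, mitophagy, collagen maturation and feedback on HIF itself. In squamous carcinomas of the head and neck, CA9 in particular is widely used as a tissue marker of hypoxia.

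The promoters of the 3 members with the smallest p-values between media, ANGPTL4, CA9 and BNIP3, are shown because each holds the HIF core. They are the 250 bases before the transcription start in RefSeq on GRCh38.p14, written 5′ to 3′ on the strand of the gene, with each ACGTG or GCGTG and each reverse complement, CACGT or CACGC, in capitals. ANGPTL4 lies at chr19:8363905-8364154 on the plus strand, CA9 at chr9:35673678-35673927 on the plus strand and BNIP3 at chr10:131981924-131982173 on the minus strand.
ANGPTL4: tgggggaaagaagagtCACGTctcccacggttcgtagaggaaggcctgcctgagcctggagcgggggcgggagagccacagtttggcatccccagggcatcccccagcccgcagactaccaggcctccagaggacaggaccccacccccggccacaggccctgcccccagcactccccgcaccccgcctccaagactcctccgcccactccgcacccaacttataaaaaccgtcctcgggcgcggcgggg
CA9: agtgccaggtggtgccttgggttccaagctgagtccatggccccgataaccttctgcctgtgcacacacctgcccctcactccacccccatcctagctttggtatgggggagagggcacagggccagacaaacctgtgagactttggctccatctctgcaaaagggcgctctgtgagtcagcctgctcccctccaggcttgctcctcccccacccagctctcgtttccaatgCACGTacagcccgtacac
BNIP3: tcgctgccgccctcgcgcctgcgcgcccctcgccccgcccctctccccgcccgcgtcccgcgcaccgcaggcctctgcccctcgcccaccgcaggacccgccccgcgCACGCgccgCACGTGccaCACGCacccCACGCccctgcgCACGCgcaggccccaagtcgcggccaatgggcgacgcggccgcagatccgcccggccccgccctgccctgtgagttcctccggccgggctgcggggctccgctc
In CA9 the core lay 18 bases before the start, in ANGPTL4 234 bases before it, and in BNIP3 the matches lay between 104 and 143 bases before it. The CACGTG in BNIP3 reads the same on both strands and so counted as 2 overlapping ACGTG matches, beside 4 of GCGTG. Of the 10 members 8 had a promoter in the RefSeq table, and VEGFA and NDRG1 did not. ACGTG was in 5 of the 8 (ANGPTL4, CA9, BNIP3, P4HA1 and ANKRD37), GCGTG in 3 (ADM, BNIP3 and KDM3A) and neither in EGLN3. Among all 35116 promoters of that length in the table, 18.5% held ACGTG, 32.2% held GCGTG and 43.2% held either. A match describes the letters and is no evidence of binding.

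Library totals lay between 17716006 and 20171713 estimated counts. The level of a gene is given as CPM, the usual count scaled to a common library total, after TMM scaling. These estimated counts are corrected for transcript length, so levels can be compared between genes. The 8 markers of squamous epithelium were all tested and summed to between 1890 and 5130 CPM in HPLM libraries, against 2570 to 6120 CPM in DMEM libraries. At an unadjusted p under 0.05, EPCAM was higher in HPLM and KRT5, KRT17 and SFN were lower, and the part of this in the members' values was not tested. The endothelial markers summed to at most 2.6 CPM in HPLM and 1 CPM in DMEM, with KDR at 0 in all 6 libraries, and the fibroblast markers to at most 6.52 and 6.13 CPM. The leukocyte markers summed to between 52.2 and 85.7 CPM in HPLM and between 44 and 75.6 CPM in DMEM, most of it CD68, while MS4A1 was at 0. In bulk RNA, fewer cells that express a gene and less RNA per cell cannot be told apart.

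Between media, 7 of the 10 genes had a higher level in HPLM in all 3 lines: ANGPTL4, CA9, BNIP3, P4HA1, EGLN3, NDRG1 and ANKRD37. VEGFA, the gene most often named as a HIF target, had a lower level in HPLM in all 3 lines, and ADM and KDM3A differed in direction between lines. Over all genes tested, 16.9% were higher in all 3 lines and 17.2% lower. None of the 10 passed an adjusted p of 0.05 in edgeR's quasi-likelihood test with the cell line as a block, where 0.00756% of the genes tested, 1 gene, did. At an unadjusted p under 0.05 there were 7 members higher in HPLM, where 5.57% of all genes were, and 1 lower, where 4.55% were. Those 8 became 5 without HSC3 and 5 when only coding transcripts were counted, an alternative chosen after seeing the data. The members' median log2 fold change was 0.727, against 0.000 for all genes tested. The members were chosen with earlier results of these data known, so these counts and this median describe them and are not an independent test. With DESeq2 in place of edgeR, 3 members were called (ANGPTL4, BNIP3 and CA9), where 0.96% of all genes were, and with limma-voom 0 were, where 0.068% of all genes were. All p-values here rest on how the difference between media varied among the 3 lines, since no line was repeated within a medium. With 2 residual degrees of freedom, edgeR also drew on the spread of all genes (4 prior degrees of freedom).

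**Figure D1:**
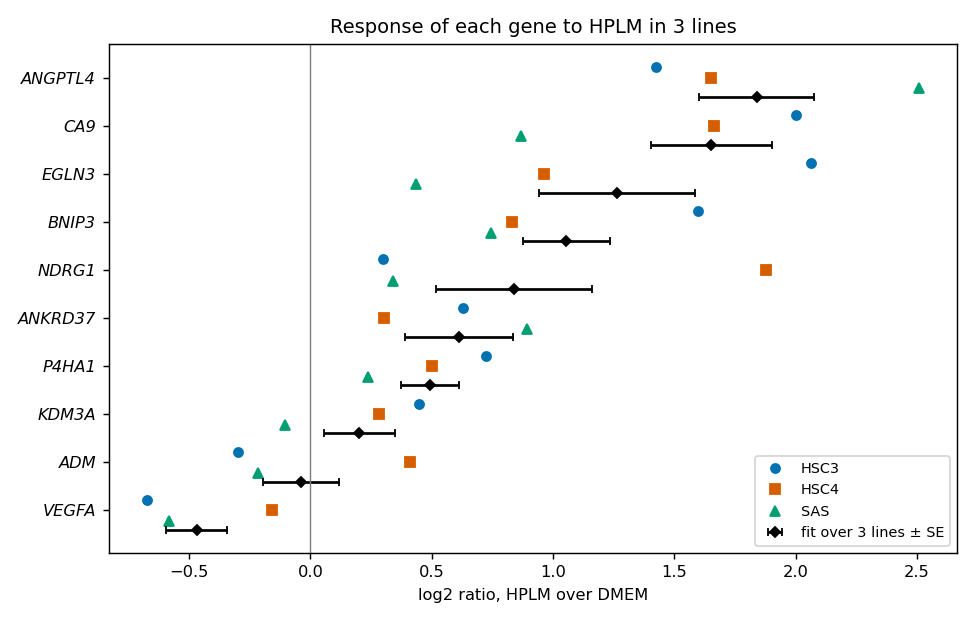
Log2 ratio of HPLM over DMEM for each of the 10 genes, as 1 point per cell line, with the fitted log2 fold change over the 3 lines and its standard error. The fitted values of ANGPTL4 and CA9 lie farthest above 0, VEGFA is below 0 in all 3 lines, and ADM and KDM3A have points on both sides of 0.

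Among the secreted signals, ANGPTL4, an angiopoietin-like protein that inhibits lipoprotein lipase and is induced by HIF and by fatty acid receptors of the PPAR family, had the largest fitted difference between media of any member over the 3 lines. CA9 exceeded it without SAS (log2 fold change 1.81 against 1.57) and on coding transcripts alone (2.41 against 1.76). The value of 2.41 rests partly on very low levels. In DMEM the coding transcript CA9-201 had 0.0696 CPM in HSC3, 4.68 CPM in HSC4 and 0.0857 CPM in SAS. ANGPTL4 had 7.49 CPM in HSC3, 28.7 CPM in HSC4 and 7.53 CPM in SAS in HPLM, against 2.72, 9.08 and 1.24 CPM in the same lines in DMEM. Each line was higher in HPLM, 2.69-fold for HSC3, 3.14-fold for HSC4 and 5.69-fold for SAS, but the groups overlapped because HSC4 in DMEM lay above HSC3 and SAS in HPLM. The log2 fold change was 1.84 ± 0.24 (SE, 3 lines; edgeR, unadjusted p = 0.000238, adjusted p = 0.197).

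VEGFA, the main growth factor of blood vessels, had 41.6 CPM in HSC3, 68.6 CPM in HSC4 and 33.9 CPM in SAS in HPLM, against 66.3, 76.4 and 50.9 CPM in DMEM. The HPLM library was the lower of the pair in each line, and the difference was smallest in HSC4. The groups overlapped, since HSC4 in HPLM lay above HSC3 and SAS in DMEM. The fitted log2 fold change was −0.47 ± 0.13 (SE, 3 lines; edgeR, unadjusted p = 0.0103, adjusted p = 0.381). VEGFA also varied least of the members, with the highest library 2.25 times the lowest.

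ADM encodes adrenomedullin, a vasodilator peptide. Its level was 122 CPM in HSC3, 44.7 CPM in HSC4 and 23.7 CPM in SAS in HPLM, against 150, 33.6 and 27.6 CPM in DMEM. HPLM was higher in HSC4 and lower in HSC3 and SAS, and HSC3 stood above the other lines in both media. The log2 fold change was −0.04 ± 0.16 (SE, 3 lines; edgeR, adjusted p = 0.957).

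CA9 encodes carbonic anhydrase IX, a membrane enzyme that hydrates carbon dioxide at the cell surface. It had 2.41 CPM in HSC3, 28.0 CPM in HSC4 and 1.17 CPM in SAS in HPLM, against 0.524, 8.79 and 0.592 CPM in DMEM. HSC4 had the highest level in both media, and the highest library was 53.6 times the lowest, the widest range among the members. Over the 3 lines the log2 fold change was 1.65 ± 0.25 (SE, 3 lines; edgeR, unadjusted p = 0.000589, adjusted p = 0.26). ARHGEF39, on the opposite strand across CA9 in GENCODE 29, had a log2 fold change of −0.20 ± 0.15.

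BNIP3, a mitochondrial membrane protein that acts as a receptor for mitophagy, had the highest mean level of the members in HPLM. Its level was 151 CPM in HSC3, 148 CPM in HSC4 and 132 CPM in SAS in HPLM, against 49.7, 83.1 and 78.9 CPM in DMEM. It was the only member whose HPLM and DMEM libraries did not overlap, which held, with HPLM higher, for 1.41% of all genes tested. The HPLM libraries also lay close together, at 144 ± 9.81 CPM, against 70.6 ± 18.2 CPM in DMEM (SD, n = 3 each). The log2 fold change was 1.05 ± 0.18 (SE, 3 lines; edgeR, unadjusted p = 0.00106, adjusted p = 0.296). BNIP3P1, a processed pseudogene that can share reads with BNIP3, had 21.6, 23 and 24.5 CPM in HPLM and 8.64, 9.94 and 13.2 CPM in DMEM, in the same order of lines, so how much of either signal belongs to the other is uncertain.

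P4HA1, the catalytic subunit of a collagen prolyl 4-hydroxylase, had 46.6 CPM in HSC3, 61.6 CPM in HSC4 and 28.7 CPM in SAS in HPLM, against 28.1, 43.4 and 24.4 CPM in DMEM. Each HPLM library was the higher of its pair, with the smallest difference in SAS. This gave a log2 fold change of 0.49 ± 0.12 (SE over 3 lines, edgeR unadjusted p = 0.00667, adjusted p = 0.371).

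EGLN3 and KDM3A are both oxygen-dependent dioxygenases, EGLN3 a HIF prolyl hydroxylase that feeds back on the pathway and KDM3A a histone H3 lysine demethylase. EGLN3 had 27.4 CPM in HSC3, 7.46 CPM in HSC4 and 3.02 CPM in SAS in HPLM, against 6.49, 3.77 and 2.21 CPM in DMEM. The order of the lines was the same in both media, and HSC3 in HPLM stood far above the other 5 libraries. Fitted over the lines, the log2 fold change was 1.26 ± 0.32 (SE, 3 lines; edgeR, unadjusted p = 0.00776, adjusted p = 0.381), and 0.74 without HSC3. KDM3A had 12.5 CPM in HSC3, 17.3 CPM in HSC4 and 19.9 CPM in SAS in HPLM, against 9.16, 14.2 and 21.4 CPM in DMEM, and its log2 fold change came to 0.20 ± 0.15 (SE over 3 lines, edgeR adjusted p = 0.68). Its HPLM level was the higher in HSC3 and HSC4 and the lower in SAS.

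NDRG1, a stress-responsive protein of the N-myc downstream-regulated family, had 65.3 CPM in HSC3, 175 CPM in HSC4 and 48.8 CPM in SAS in HPLM, against 53.1, 47.4 and 38.5 CPM in DMEM. HSC4 in HPLM stood apart, while the DMEM libraries were close together at 46.3 ± 7.35 CPM (SD, n = 3). The log2 fold change was 0.84 ± 0.32 (SE, 3 lines; edgeR, unadjusted p = 0.04, adjusted p = 0.474), and 0.31 without HSC4. ANKRD37, a small ankyrin-repeat protein, had 6.77 CPM in HSC3, 5.51 CPM in HSC4 and 4.19 CPM in SAS in HPLM, against 4.35, 4.44 and 2.21 CPM in DMEM. Its fitted log2 fold change was 0.61 ± 0.22 (SE, 3 lines; edgeR, unadjusted p = 0.0332, adjusted p = 0.456). UFSP2, which overlaps ANKRD37 on the opposite strand, had a log2 fold change of −0.03 ± 0.11.

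**Figure D2:**
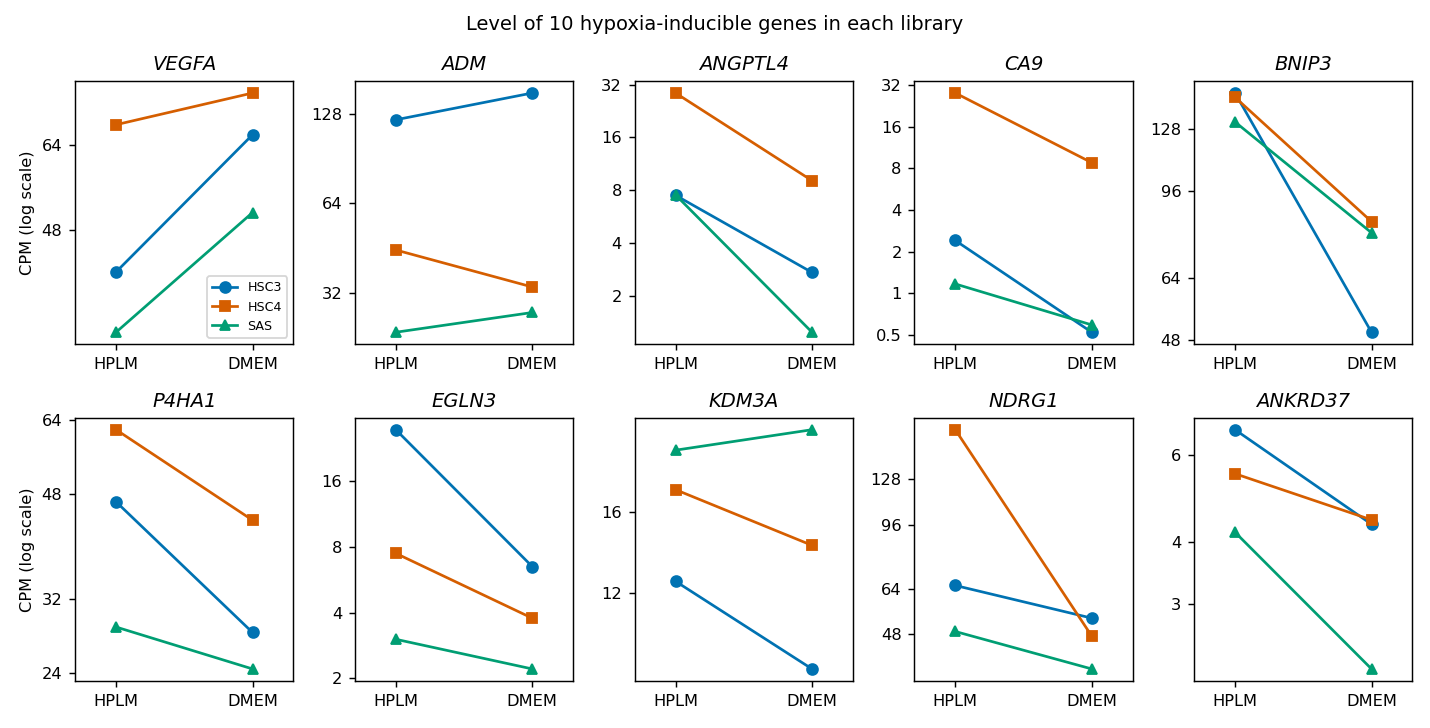
Level of each gene in CPM (log axis, a different range per panel) in the HPLM and DMEM library of each line, with a line joining the pair. Only BNIP3 has every HPLM library above every DMEM library; CA9 and ANGPTL4 are highest in HSC4, ADM and EGLN3 in HSC3.

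The member with the largest difference was not the same in each line. It was EGLN3 for HSC3, with a log2 ratio of HPLM over DMEM of 2.06, NDRG1 for HSC4 with 1.88, and ANGPTL4 for SAS with 2.51. A log2 ratio of 1 or more was reached by 4 members in HSC3 (ANGPTL4, CA9, BNIP3 and EGLN3), by 3 in HSC4 (ANGPTL4, CA9 and NDRG1) and by ANGPTL4 alone in SAS, against 3.13%, 3.32% and 4.05% of all genes tested. A ratio of −1 or less was reached by 0 members in any line, against 3.85% of all genes in HSC3, 2.65% in HSC4 and 2.6% in SAS. Over the members the median log2 ratio was 0.677 for HSC3, 0.667 for HSC4 and 0.388 for SAS. Whether the lines differ in their response was not tested, since each line has 1 library per medium.

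The deposited values are per transcript, so the forms behind each total can be read, with the limit that transcripts of a gene are estimated together and the table gives no uncertainty for the split. CA9-201, the transcript for the full enzyme of 459 residues, had 2.42 CPM in HSC3, 16.2 CPM in HSC4 and 0.548 CPM in SAS in HPLM, against 0.0696, 4.68 and 0.0857 CPM in DMEM. It made up 100% of CA9 in HSC3 in HPLM and 13.3% in DMEM, where it came to 1.33 estimated counts, 57.6% of the HSC4 total in HPLM and 53.2% in DMEM, and 46.5% of the SAS total in HPLM and 14.3% in DMEM. The other forms were 2 transcripts annotated as processed transcripts without a coding sequence. When the fit used only transcripts annotated as protein-coding, a choice made after seeing the data, the log2 fold change of CA9 was 2.41 (edgeR, unadjusted p = 0.0035) and no member was called.

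For VEGFA the coding transcripts summed to 26 CPM in HSC3, 54.1 CPM in HSC4 and 25.5 CPM in SAS in HPLM, against 38.2, 51.7 and 39.7 CPM in DMEM. HSC4 thus differed in direction from its total, and the fit on coding transcripts gave a log2 fold change of −0.37 (edgeR, unadjusted p = 0.0591). VEGFA-205, whose coding sequence of 371 residues begins upstream of the usual start, was the most abundant form, with 15.4, 29.5 and 10.7 CPM in HPLM, against 24.3, 25.7 and 16.8 CPM in DMEM, lines in the same order. VEGFA-206, of 147 residues, which lacks the heparin-binding exons and encodes a freely diffusible form, had 5.58, 11.1 and 8.62 CPM in HPLM, against 5.44, 13 and 11.4 CPM in DMEM. The retained-intron transcript VEGFA-215 had 4.85 CPM in HPLM and 12.7 CPM in DMEM in HSC3, a larger difference than in HSC4 (8.75 and 8.27 CPM) or SAS (3.36 and 4.61 CPM).

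EGLN3-201, which encodes the full protein of 239 residues, had 14.6, 4.34 and 0.829 CPM in HPLM, against 3.58, 2.11 and 1.37 CPM in DMEM, lines in the same order, so that in SAS it ran against the gene's total. In ANKRD37, the coding transcript ANKRD37-201 of 158 residues had 1.56, 1.21 and 1.47 CPM in HPLM, against 1.74, 1.28 and 0.616 CPM in DMEM. Its HPLM level was the lower in HSC3 and HSC4, but by few estimated counts. These were 30.45 in HPLM and 33.31 in DMEM for HSC3, and 22.43 and 26.7 for HSC4. The coding transcripts together were lower in HPLM in HSC3 but higher in SAS and in HSC4 (1.84 against 1.29 CPM). The retained-intron transcript ANKRD37-206 was higher in HPLM in each line, at 2.81, 2.46 and 1.81 CPM against 2.02, 0.636 and 0.968 CPM. On coding transcripts alone the log2 fold change of ANKRD37 was 0.37 (edgeR, unadjusted p = 0.395). In BNIP3 and ANGPTL4 a single form dominated: BNIP3-201 made up between 96.1% and 98.1% of its gene in the 6 libraries and ANGPTL4-201 between 77.4% and 93.4%. NDRG1-201 made up between 50.7% and 59.7%.

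**Figure D3:**
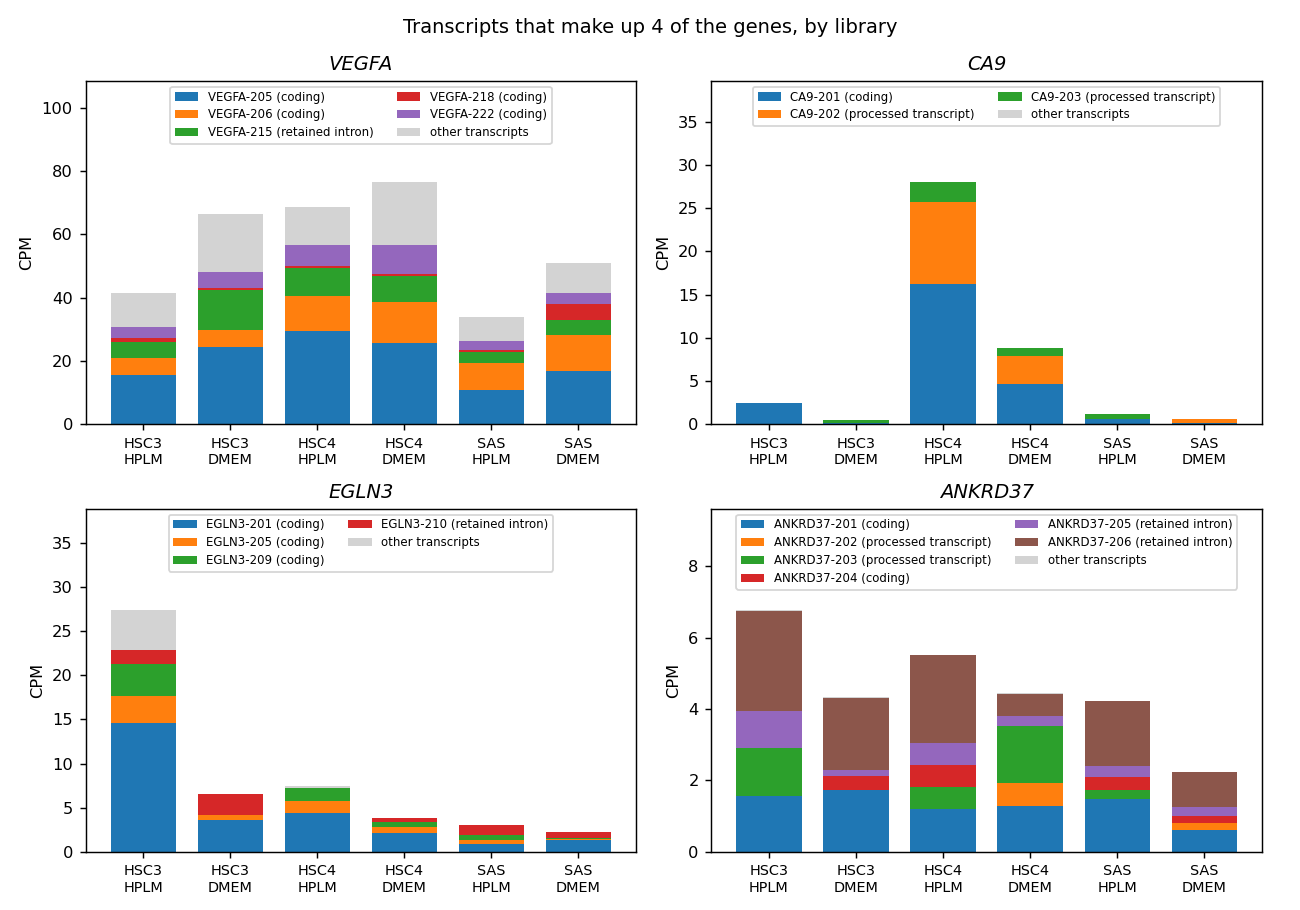
Stacked level in CPM of the transcripts of VEGFA, CA9, EGLN3 and ANKRD37 that hold 10% or more of the gene in some library, with the annotated type of each, by line and medium. Coding CA9-201 is higher in HPLM in each line, and so is the retained-intron transcript ANKRD37-206.

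Of the machinery that senses oxygen, 15 of 16 listed genes were tested and 0 were called by edgeR. By unadjusted p, under 0.05, 2 were higher in HPLM and 0 lower, against 5.57% and 4.55% of all genes tested. The median log2 fold change of the 15 was 0.066. HIF1A RNA, which encodes the main regulated subunit, had 279, 319 and 215 CPM in HPLM, against 242, 354 and 208 CPM in DMEM, with the lines in that order throughout (log2 fold change 0.03 ± 0.10, SE, 3 lines). EPAS1, the second alpha subunit, had a log2 fold change of 0.25 ± 0.11. The 2 higher genes were EGLN1, the principal HIF prolyl hydroxylase and itself a HIF target, with 23.2, 30.9 and 34.0 CPM in HPLM against 14.1, 24.6 and 27.4 CPM in DMEM (log2 fold change 0.45 ± 0.12), and ELOC, a subunit of the VHL ligase (0.29 ± 0.08).

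Among 50 further HIF targets, 46 were tested and 0 were called. In HPLM 12 were higher and 1 was lower by the same p, against 5.57% and 4.55% of all genes tested. A positive log2 fold change was found for 36, as for 50.1% of all genes tested, and the median was 0.215. This list too was chosen with earlier results of these data known. The smallest p-values belonged to EDN1, the vasoconstrictor endothelin-1, with 57.4, 25.0 and 14.2 CPM in HPLM against 16.3, 14.0 and 2.85 CPM in DMEM (log2 fold change 1.60 ± 0.27), and ENO2, a glycolytic enolase (1.03 ± 0.19). The 1 lower gene was TFRC, the transferrin receptor (−0.25 ± 0.09), named after its value was seen. Of the PPAR targets, which ANGPTL4 also is, 9 of 15 were tested, of which 4 were higher and 0 lower in HPLM at that p, and the median was 0.342. ACAA2 and ACADVL, enzymes of mitochondrial fatty acid oxidation, had log2 fold changes of 0.64 ± 0.18 and 0.47 ± 0.15.

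**Figure D4:**
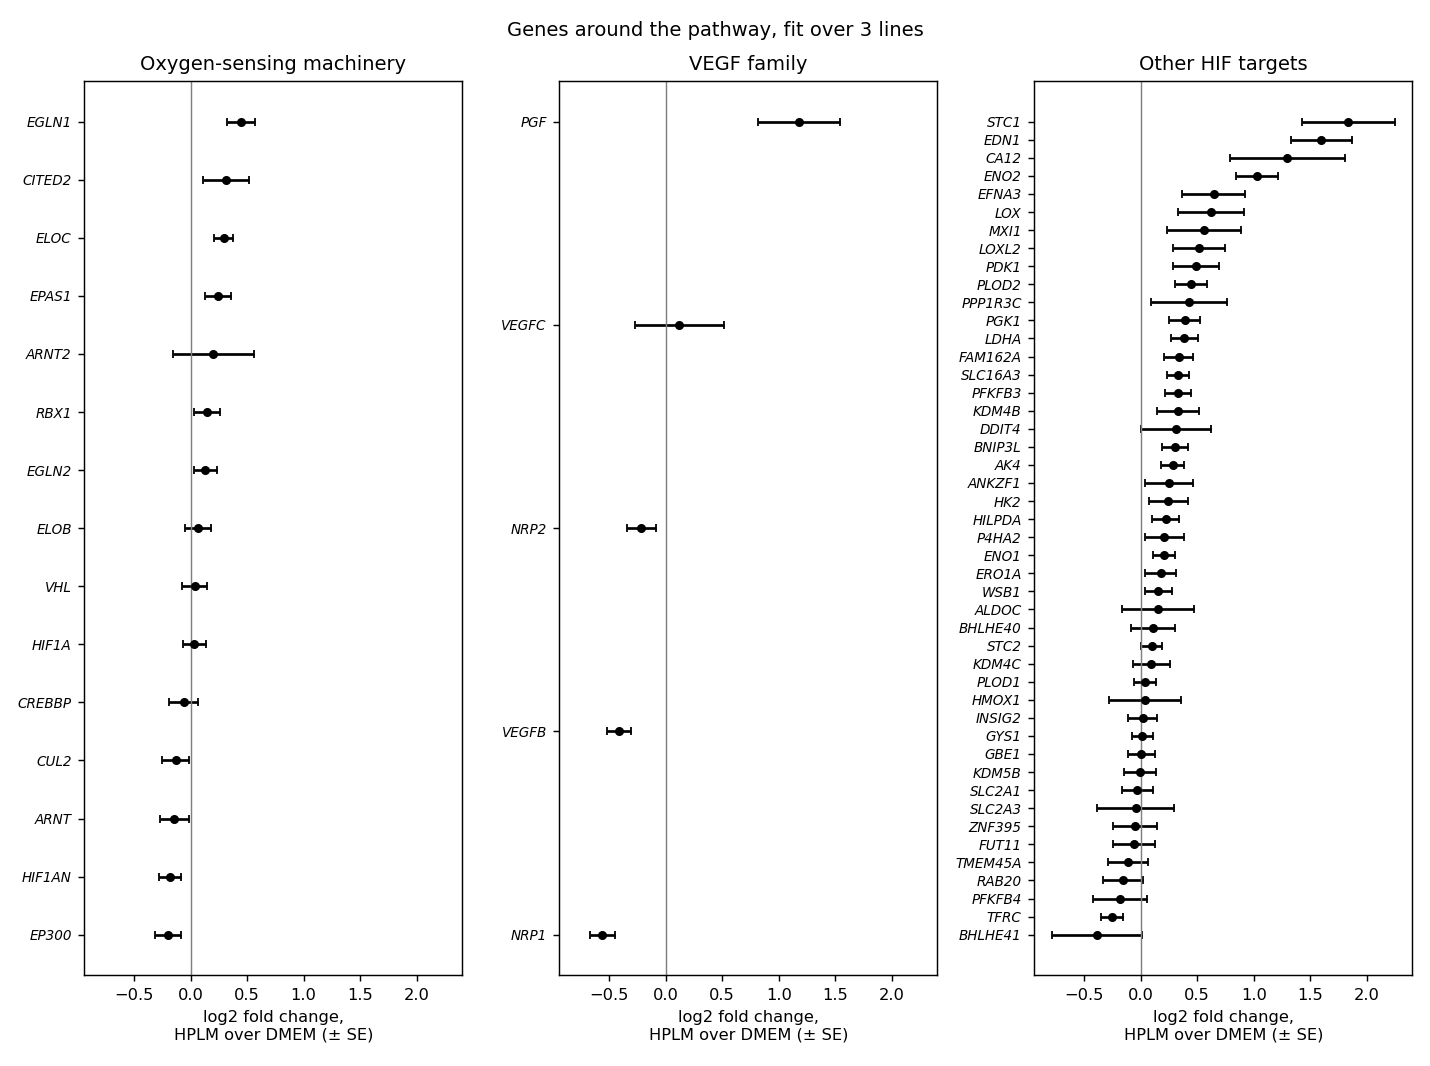
Log2 fold change of HPLM over DMEM, fitted over the 3 lines, for each tested gene of the oxygen-sensing machinery, the VEGF family and the further HIF targets, with 1 point per gene and bars for the standard error. Of the further HIF targets, 36 of 46 lie above 0, where 50.1% of all genes tested do, while the oxygen-sensing genes have a median of 0.066.

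Of 9 other VEGF ligands and receptors 5 were tested and 0 were called, with a median log2 fold change of −0.213. By unadjusted p, under 0.05, 1 was higher and 2 were lower in HPLM, against 5.57% and 4.55% of all genes tested. The lower ones were NRP1, a co-receptor, with 52.5, 34.1 and 21.3 CPM in HPLM against 66.4, 55.8 and 33.0 CPM in DMEM (log2 fold change −0.56 ± 0.11), and VEGFB, with 69.1, 68.3 and 44.2 CPM in HPLM against 102, 94.9 and 50.6 CPM in DMEM (−0.41 ± 0.11). PGF, placental growth factor, was the higher one, with 4.72, 3.73 and 3.77 CPM in HPLM against 1.99, 2.72 and 0.969 CPM in DMEM, named after its values were seen.

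No tested relative of the other members was called. At an unadjusted p under 0.05, 5.57% of all genes tested were higher in HPLM and 4.55% lower. Of the adrenomedullin relatives and receptors 3 of 9 were tested, with 0 at an unadjusted p under 0.05 (RAMP1 0.33 ± 0.32, ACKR3 −0.65 ± 0.39). Of the carbonic anhydrases 6 of 14 were tested and 1, CA12, was higher at that p (1.298 ± 0.512), beside CA2 at 1.32 ± 0.64. The level of CA12 was low, at a mean of 1.27 CPM over the 6 libraries. P4HA2, a relative of P4HA1, had 0.21 ± 0.17, and P4HB, the partner subunit, had −0.18 ± 0.09. NDRG2 and NDRG3 had 0.23 and 0.07. Of the KDM3 family 3 were tested and JMJD1C was lower at that p (−0.27 ± 0.11), beside HR at −0.89 ± 0.51. Of the mitophagy receptors 6 of 7 were tested and BNIP3L, the closest relative of BNIP3, was higher at that p (0.30 ± 0.12), beside FKBP8 at 0.06. CA12, P4HA2 and BNIP3L were also in the list of further HIF targets. CA12 and BNIP3L were thus already counted among its 12 higher genes. Of the other angiopoietin-like genes and lipoprotein lipase, 0 of 9 had enough counts. Among targets of ATF4, a stress factor that shares DDIT4, STC2 and VLDLR with the HIF list, 21 of 22 were tested, and 0 were higher and 4 lower in HPLM at that p. HSC3 stood apart, with a median log2 ratio of −0.696 over these genes, against 0.109 for HSC4 and 0.214 for SAS, and whether the lines differ was not tested. SLC7A5 and SLC7A11, both amino acid transporters, had −0.37 ± 0.09 and −1.69 ± 0.54.

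Lines were compared in the same fit with the medium as a term. Between HSC3 and HSC4 5 members were called, between HSC3 and SAS 3 and between HSC4 and SAS 5, where 37.4%, 39.4% and 41.3% of all genes tested were called, so such calls were common among all genes and are not particular to the members. ADM was higher in HSC3, at a mean of 136 CPM over both media, than in HSC4 (39.2 CPM; log2 fold change 1.79 ± 0.19, edgeR adjusted p = 0.00198) and SAS (25.6 CPM; 2.41 ± 0.20, adjusted p = 0.000875). EGLN3 was higher in HSC3 at 17.0 CPM than in SAS at 2.62 CPM (2.46 ± 0.40, adjusted p = 0.00594), a log2 fold change of 1.71 without HSC3 in HPLM, 1.84 without SAS in HPLM and 3.05 without HSC3 in DMEM. CA9 was lower in HSC3 at 1.47 CPM than in HSC4 at 18.4 CPM (−3.69 ± 0.29, adjusted p = 0.000982), and higher in HSC4 than in SAS at 0.88 CPM (4.31 ± 0.31, adjusted p = 0.000631). ANGPTL4 was likewise lower in HSC3 than in HSC4 (5.11 and 18.9 CPM; −1.86 ± 0.28, adjusted p = 0.00498) and higher in HSC4 than in SAS at 4.38 CPM (2.26 ± 0.29, adjusted p = 0.00276), with a log2 fold change of 2.90 without SAS in HPLM. P4HA1 (0.96 ± 0.15, adjusted p = 0.00504) and VEGFA (72.5 and 42.4 CPM; 0.80 ± 0.16, adjusted p = 0.01) were higher in HSC4 than in SAS. KDM3A was lower in HSC3 at 10.8 CPM than in SAS at 20.7 CPM (−0.95 ± 0.18, adjusted p = 0.00972).

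BNIP3, NDRG1 and ANKRD37 were called in none of the 3 contrasts with all libraries. Without HSC3 in HPLM, BNIP3 had a log2 fold change of −0.749 for HSC3 against HSC4 and −0.639 for HSC3 against SAS. HSC3 was then represented only by its DMEM library, at 49.7 CPM for BNIP3 against 151 CPM in HPLM. Without HSC3 in DMEM the BNIP3 values were 0.064 and 0.173. Without HSC4 in DMEM, NDRG1 had a log2 fold change of −1.426 for HSC3 against HSC4 and 1.874 for HSC4 against SAS. HSC4 was then represented only by its HPLM library, at 175 CPM for NDRG1 against 47.4 CPM in DMEM. Without HSC4 in HPLM those log2 fold changes were 0.147 and 0.295. For HSC3 against SAS, NDRG1 had 0.447 without HSC4 in DMEM and 0.442 without HSC4 in HPLM. The calls of ADM in HSC3 against both other lines, of CA9 in HSC4 against both other lines, of EGLN3 between HSC3 and SAS and of P4HA1 between HSC4 and SAS held in each of 11 alternatives tried. Some of the 11 left out a library of the line outside the contrast, which hardly moves the estimate. For EGLN3 between HSC3 and SAS it was 2.438 without HSC4 in HPLM and 2.446 without HSC4 in DMEM, against 2.457. The calls of P4HA1 (adjusted p = 0.0396) and EGLN3 (adjusted p = 0.0298) between HSC3 and HSC4 and of ADM between HSC4 and SAS (adjusted p = 0.0478) held in 5, 7 and 6 of the 11. VEGFA held in 8, lost without the HSC4 or the SAS library in HPLM (adjusted p = 0.0526 and 0.0747) and without the medium term (0.0578). KDM3A held in 9, lost without the HSC3 or the SAS library in DMEM (adjusted p = 0.0689 and 0.0635). P4HA1 was lost without any of the 4 libraries of its 2 lines (adjusted p between 0.0537 and 0.252), with no low-count filter (0.0657) and without the medium term (0.2). EGLN3 was lost without HSC3 in HPLM or either HSC4 library (adjusted p between 0.0966 and 0.256) and without the medium term (0.0983). Its log2 fold change between HSC3 and HSC4 was 1.41 with all libraries, 0.66 without HSC3 in HPLM and 1.998 without HSC3 in DMEM. ADM was lost without HSC4 in HPLM or either SAS library (adjusted p between 0.102 and 0.255), with no low-count filter (0.0726) and with limma-voom (0.0502). ANGPTL4 was lost only when the medium was left out of the fit, among the alternatives run.

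The genes most like VEGFA over the 6 libraries, by Euclidean distance between centred log2 CPM among tested genes with a mean of 5 CPM or more, were TUT7 at 0.169, ERCC5 at 0.238 and CORO1B at 0.247. For ANGPTL4 they were IL32 at 1.191, PPP1R14C at 1.22 and TMEM132A at 1.223. For CA9 they were TXNIP at 1.934, IL6 at 2.021 and LTB at 2.076. The values were centred but not scaled, so the distance tends to be larger for a gene that varies more. The highest library was 2.25 times the lowest for VEGFA, 23.2 times for ANGPTL4 and 53.6 times for CA9. The sizes of the distances therefore cannot be compared between these members. These distances describe 6 libraries that share lines and media.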

How the data were processed

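Poly(A)-selected, strand-specific libraries were sequenced on a DNBSEQ-G400, per the labels' protocols. Per the submitters' processing notes, FastQC and kallisto were used with the hg38 build. Not given in the sources used here are tool versions, annotation release and use of strand in quantification. Transcript-level expected counts were deposited as 1 table, called scaled TPM by its name: abundances scaled up to the library, so the values are length-corrected estimates and not reads. The HPLM columns name line and medium. The columns taken for DMEM name only the line and end in letters that no label explains. No per-sample column was left unused.

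Of 161149 rows, 1312 repeated a transcript already listed and were not counted again. The 6878 transcripts without a symbol (0.362% to 0.479% of a library) were left out. Sums per symbol were rounded to whole numbers. With R 4.3.3 and edgeR 4.0.16, genes were filtered with filterByExpr (minimum count of 10, minimum total of 15), scaled by TMM and fitted with terms for line and medium (2 residual degrees of freedom). Lines were compared in the same fit. P-values were adjusted by Benjamini-Hochberg over all 13236 genes and called under 0.05. Standard errors divide the size of the log2 fold change by the root of F. Ratios per line subtract log2 CPM values computed with prior count 2, which understates folds of low genes. Alternatives used RLE or no scaling, no filter, DESeq2 1.42.0, limma 3.58.1 (voom), no block or medium term, repeated rows, coding transcripts, another prior count and left-out lines or libraries. The scripts were tested on simulated data.

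The HPLM and DMEM libraries are paired by line. Deviations from the medium's mean within a pair correlated at 0.779 (HSC3), 0.792 (HSC4) and 0.805 (SAS). The members and lists were chosen with earlier results of these data known. The text names all members, from each pathway list the 2 genes of lowest p among those averaging 1 CPM or more, HIF1A, EPAS1 and EGLN1, and the 3 genes most like VEGFA, ANGPTL4 and CA9. TFRC, PGF and the cell type markers named were picked after their values were seen. Named outside these rules were BNIP3P1, ARHGEF39 and UFSP2, and DDIT4, STC2 and VLDLR as genes shared by lists. BNIP3P11, another BNIP3 pseudogene, had a log2 fold change of 0.14 ± 0.38 at a mean of 2.05 CPM. SPTSSA, which overlaps EGLN3, had 0.14 ± 0.10. Transcript types come from GENCODE 29 (GRCh38) and promoters from RefSeq.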

Additional observations from a re-analysis of the deposited data

Results flagged for a closer look

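Of the 10 genes, 2 differed in direction between lines. For ADM the log2 ratio of HPLM over DMEM was −0.30 (HSC3), 0.41 (HSC4) and −0.22 (SAS). For KDM3A it was 0.45 (HSC3), 0.28 (HSC4) and −0.10 (SAS). With 1 library per line and medium the difference between lines was not tested.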

How the results depend on the processing

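Between HPLM and DMEM, edgeR called 1 gene, and 1339 had an unadjusted p under 0.05. It called 0 without the low-count filter (1504 at an unadjusted p under 0.05), 0 with no replicate block (59) and between 0 and 4 with 1 line left out. DESeq2 called 127 (81 higher, 46 lower) and limma-voom 9 (5 higher, 4 lower). The members called were 0, or 3 with DESeq2, and the cause was not tested. With no replicate block the members' median log2 fold change was 0.804, and 1 member had an unadjusted p under 0.05. Leaving out 1 line gave ADM between −0.268 and 0.104. Between lines, leaving out the medium term gave 2 members called for HSC3 against HSC4 and 3 for HSC4 against SAS. With 1 library left out, where the lone library of a line is assumed to vary like the others, genes called ranged from 2445 to 4844 for HSC3 against HSC4, 2848 to 5000 for HSC3 against SAS and 2787 to 5554 for HSC4 against SAS. Members called ranged from 3 to 6, 2 to 4 and 3 to 6. The log2 fold changes of the members that reversed then, none of them called with all libraries, ranged, for HSC3 against HSC4, from −0.749 to 0.064 (BNIP3), −1.426 to 0.147 (NDRG1) and −0.105 to 0.346 (ANKRD37); for HSC3 against SAS, from −0.639 to 0.173 (BNIP3) and −0.005 to 0.861 (NDRG1); and for HSC4 against SAS, from −0.124 to 0.36 (BNIP3).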
